A study of Saccharomyces cerevisiae with 23 samples.

Results

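Of 23 yeast lines, 12 were chosen from the 2 ends of a continuous score of ribosomal protein genes. The lines are mutation accumulation lines of Saccharomyces cerevisiae, each kept apart from the others while new mutations built up in it. Their labels run from MA line 19-1 to 19-50 with numbers missing, and the last number names a line here. Each line was scored by the median log ratio over 132 ribosomal protein rows (76 for the large and 56 for the small subunit), those whose current symbol is RPL or RPS with a number and an optional A or B. The 6 highest lines (22, 19, 8, 4, 40 and 10) and the 6 lowest lines (44, 45, 21, 7, 28 and 1) were compared over the other 6202 rows, and 11 lines lay between.

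All lines were unsynchronized cultures in YPD at 30 °C, taken in log phase at an OD600 of about 1.0. The cDNA of a line (Alexa Fluor 555) shared a 2-channel spotted-oligo array with cDNA of strain YPS183 (Alexa Fluor 647, OD600 of 1.1), with no dye swap. Each line has 1 column of log ratios, read as log2, and it is not stated whether a column averages the 2 biological replicates that the design mentions for every strain. Line, culture and array differences were therefore not separated, and the ancestor was not analysed here.

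Ribosomal protein genes are among the most actively transcribed in growing yeast, and their transcription follows the growth signals of the TOR and protein kinase A pathways through factors such as Sfp1 and Ifh1. The genes for assembling ribosomes, for RNA polymerases I and III and for translation are known to move with them. Stress genes under the activators Msn2 and Msn4, and genes repressed by glucose, are known to move the other way when growth slows.

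The score ran from -1.26 in line 44 to 1.49 in line 10. At the lower threshold line 1 stood just inside at -0.76 and line 42 just outside at -0.61, and at the upper one line 22 stood inside at 0.33 and line 25 outside at 0.21. All 132 scoring rows had a higher mean in the high lines, with differences from 0.07 to 2.48 and a median of 1.85. These values chose the lines and are given as a description. The labels do not name the numerator of the ratio. With the sign of every column turned, the high lines would become the low ones, and each gene below would keep its side relative to the ribosomal protein genes.

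**Figure D1:**
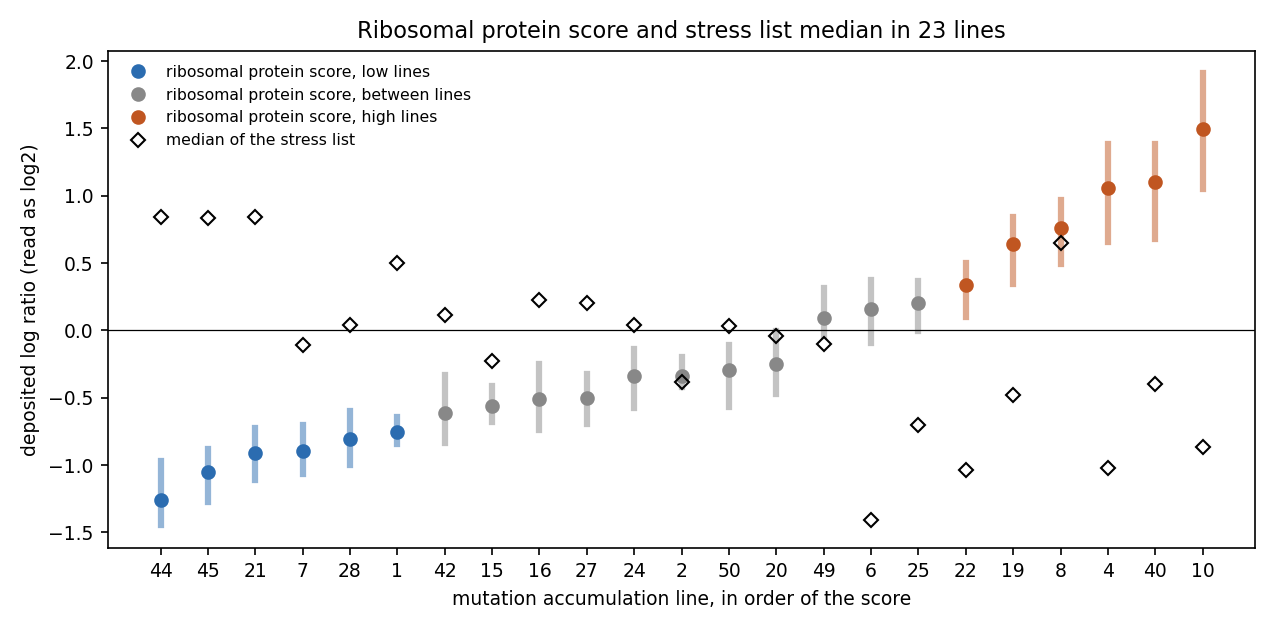
Ribosomal protein score of each line (circles, with bars from the lower to the upper quartile over the 132 scoring rows) and median of 80 stress genes (diamonds), on the deposited log2 scale, with lines in order of the score. The high lines run from 0.33 to 1.49 and the low lines from -1.26 to -0.76, and line 8 has a stress median of 0.65 where the other 5 high lines lie between -1.03 and -0.39.

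The groups were not uniform. Over the other rows, Pearson's r across genes between a low and a high line ran from -0.60 to 0.60 with a median of -0.22, though the dyes are stated alike for every line. Between 2 low lines it ran from 0.13 to 0.89, the highest being lines 1 and 45, and between 2 high lines from -0.13 to 0.68. Line 8 stood apart from the other high lines, with a mean r of 0.01 to them and 0.32 to the low lines. The median of 80 stress genes was -0.86 in line 10, -1.02 in line 4, -1.03 in line 22, -0.48 in line 19 and -0.39 in line 40, but 0.65 in line 8. In the low lines it lay between -0.11 in line 7 and 0.84 in lines 44 and 21. Array SDs ran from 0.25 to 0.58 over the 23 lines. The part of the stress list, of line 8 and of array spread in the differences below was not tested; counts without line 8 stand beside the list counts that it changes.

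A row was counted as apart where no high line lay within the range of the low lines and the means differed by 0.5 or more. Of the 6202 other rows, 202 (3.26%) were apart with a higher mean in the high lines, the side of the ribosomal proteins, and 207 (3.34%) were apart on the opposite side, which makes 409 (6.59%). Without the size threshold 548 rows (8.84%) did not overlap. Left out of what follows are the stress list, in which 1 gene was apart on the ribosomal side and 7 on the opposite side, and 5 stalk protein genes of the ribosome outside the scoring pattern, of which 3 were apart on the ribosomal side. Among the 6117 rows beyond both, 198 were apart on the ribosomal side and 200 on the opposite side. The lines were picked by a readout of the same arrays, so these counts describe the 12 lines and carry no test. Without line 8 there were 413 (6.66%) and 467 (7.53%) of the other rows apart, with 407 of the 409 rows still apart. Rows without overlap cannot gain one when a line is left out, so the 407 were nearly fixed by the rule. The rule is also easier to meet with fewer lines at an end, here and in the list counts without line 8. Without line 7 the count on the ribosomal side was 313. Scaling all columns to a common spread, which put line 15 in place of line 1, gave 132 and 140.

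**Figure D2:**
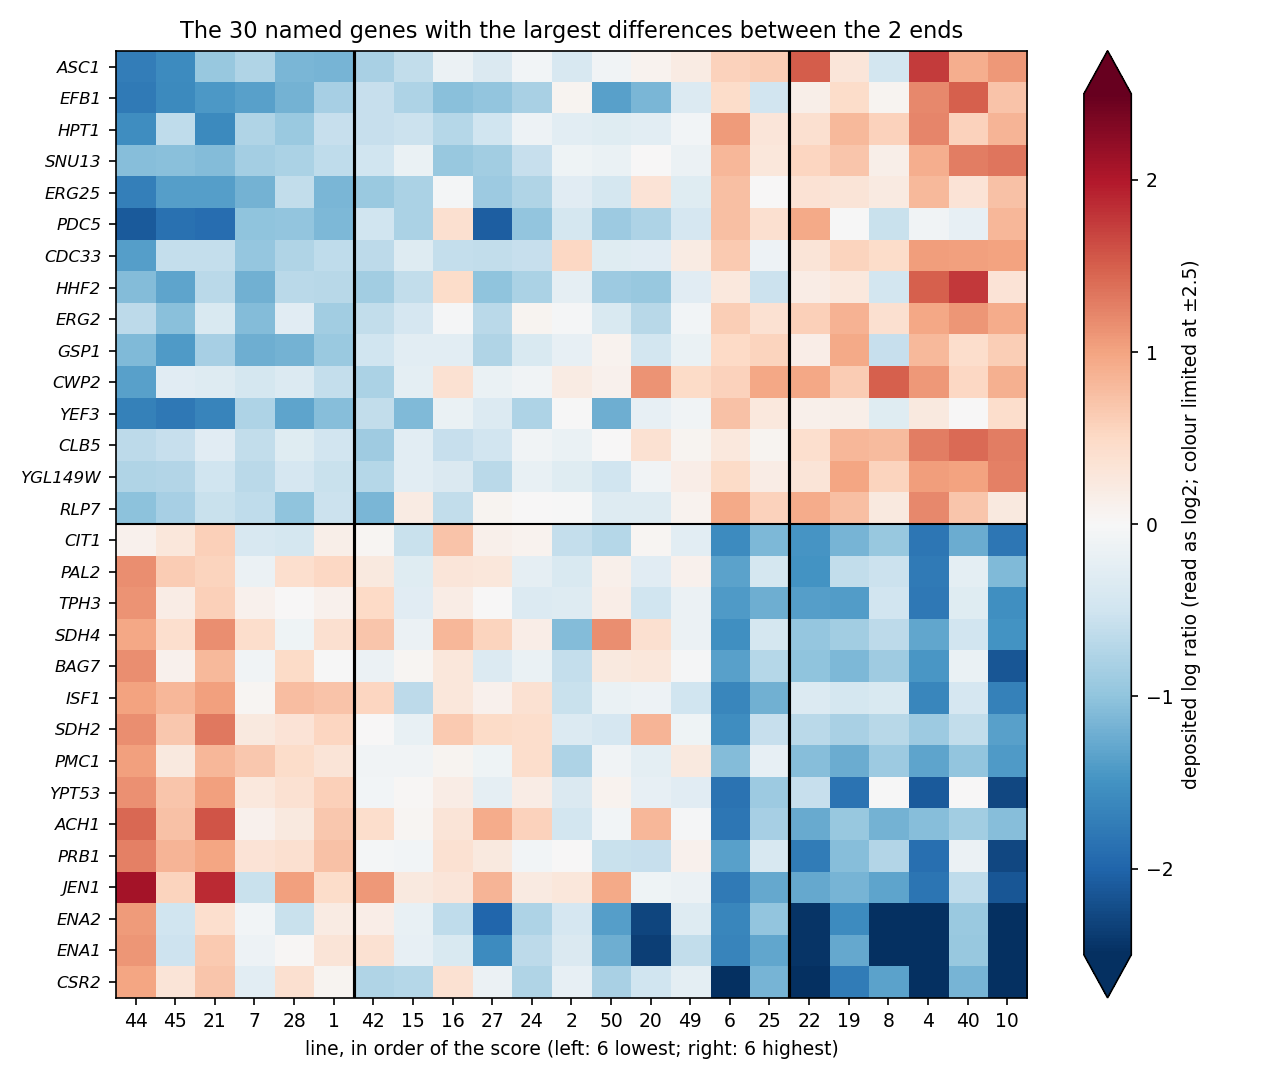
Deposited log2 ratios of the 15 genes with the largest difference on each side among genes apart, beyond the ribosomal and stress lists, with the 23 lines in order of the score; vertical lines separate the 6 lowest and 6 highest lines. Lines 6 and 25, next below the high lines, have the sign of the high side in 30 and 27 of the 30 genes.

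Genes that act with the ribosome lay highest on its side. ASC1 (YMR116C), which encodes a core protein of the small subunit that the scoring pattern does not cover, ran from -0.46 through a median of 0.99 to 1.74 in the high lines and from -1.72 through -1.15 to -0.75 in the low lines. The groups did not overlap, and the lowest high line was line 8. Their means of 0.85 ± 0.81 and -1.21 ± 0.37 (SD, n = 6 each) differed by 2.06. EFB1 (YAL003W), the exchange factor of translation elongation, ran from 0.08 through 0.58 to 1.49 in the high lines and from -1.76 through -1.39 to -0.83 in the low lines. Its difference was 2.04. ASC1 and EFB1 each carry a small nucleolar RNA gene within them (SNR24 and SNR18), and whether a spot measures it was not tested.

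Translation factors as a list followed. Of 55 genes for translation factors and ribosome-associated proteins, 16 were apart on the ribosomal side and 0 on the other (32 and 2 without line 8), and the median difference was 0.85 where that of all other rows was -0.02. The cap-binding protein gene CDC33 differed by 1.55 and the elongation factor 3 gene YEF3 by 1.48. The list median was 0.09 to 0.30 in the 5 high lines other than 8, -0.24 in line 8, and -0.72 to -0.42 in the low lines. Of 22 cytosolic aminoacyl-tRNA synthetase genes, all had a positive difference with a median of 0.77, but 4 were apart, among them WRS1 for tryptophan (1.23) and THS1 for threonine (0.73). Line 8 had a synthetase median of -0.46, within the range of the low lines, and without it 14 of the 22 were apart.

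Ribosome assembly genes lay on the same side broadly, by smaller amounts. Of 148 measured, 142 had a higher mean in the high lines, 33 were apart on that side and 0 on the other (52 and 0 without line 8), with a median difference of 0.56. SNU13 (YEL026W), a protein of the box C/D small nucleolar particles that guide ribosomal RNA processing, ran from 0.15 through 0.80 to 1.34 in the high lines and from -1.09 through -0.95 to -0.64 in the low lines. It differed by 1.73. RLP7 and MRT4 of the large subunit precursor differed by 1.44 and 1.43, and PNO1 of the small subunit precursor by 1.21. PNO1 held a narrow range in the high lines, from 0.44 to 0.63 (SD 0.08).

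Polymerase subunits were apart in 11 of 41 genes (14 without line 8), all on the ribosomal side, with a list median difference of 0.36. RPC10, a subunit that all 3 nuclear RNA polymerases share, ran from 0.15 through 0.77 to 1.58 in the high lines and from -0.77 through -0.51 to -0.34 in the low lines, a difference of 1.37. RPO26, shared in the same way, differed by 1.29, and the polymerase I subunits RPA49 and RPA43 by 1.25 and 1.12.

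Nucleotide and amino acid genes lay on the same side. HPT1 (YDR399W), which salvages hypoxanthine and guanine, ran from 0.41 through 0.70 to 1.23 in the high lines and from -1.59 through -0.84 to -0.57 in the low lines. The groups did not overlap, with line 22 the lowest high line and line 1 the highest low line. It differed by 1.75. Of 26 genes for purines and one-carbon units, 25 had a positive difference with a median of 0.80, but HPT1 and the folate enzyme gene MTD1 (0.71) were the 2 apart (3 without line 8). In the pyrimidine list 3 of 16 were apart (5, and 1 on the opposite side, without line 8), the uracil salvage gene FUR1 (1.16), the uridylate kinase gene URA6 (1.08) and the CTP synthase gene URA7 (0.60). Among 67 amino acid synthesis genes under the activator Gcn4, 12 were apart on the ribosomal side and 0 on the other (14 and 0 without line 8), with a median of 0.38. They included the chorismate synthase gene ARO2 (1.39), LYS9 of lysine synthesis (1.27) and ILV5 and ILV1 of branched-chain synthesis (1.12 and 1.03). Of 35 sulfur amino acid genes 1 was apart (4 without line 8), and their median was -0.01.

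Ergosterol genes included 4 of 26 apart on the ribosomal side and 0 on the other (7 and 0 without line 8), and 20 of 26 had a positive difference, with a median of 0.55. ERG25 (YGR060W), the C-4 methyl sterol oxidase, ran from 0.22 through 0.36 to 0.81 in the high lines and from -1.72 through -1.29 to -0.61 in the low lines, a difference of 1.70. The isomerase gene ERG2 differed by 1.53, the desaturase gene ERG3 by 1.37 and the methyltransferase gene ERG6 by 1.10. CYB5, the cytochrome b5 that passes electrons to sterol and lipid enzymes, differed by 1.36. It was counted in the list for the respiratory chain and ATP synthase, where 3 other genes were apart on the opposite side (4 without line 8).

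Of the 15 largest differences on the ribosomal side, the others lay in several lists or in none. The Ran GTPase gene GSP1, needed for nuclear transport, differed by 1.51, the wall mannoprotein gene CWP2 by 1.49 and PDC5, a pyruvate decarboxylase gene, by 1.65. PDC5 was the 1 apart of 25 genes in the thiamine list (6 without line 8), though 22 had a positive difference, with a median of 0.71. YGL149W differed by 1.46; it neighbours ARO2 and overlaps INO80 in the R64 annotation, so which transcript its spot measures is uncertain. CLB5, a cyclin of S phase, ran from 0.42 through 1.05 to 1.42 in the high lines and from -0.65 through -0.52 to -0.28 in the low lines. It was 1 of 3 apart among 54 G1/S genes, with POL30 (1.12), the replication clamp, and RAD27 (0.61), and without line 8 the count was 15. Histone H4 genes HHF2 (1.54) and HHF1 (1.29) were the 2 apart of 11 histone genes. Of the 11, 10 had a positive difference, with a list median of 1.08. Without line 8, in which the histone median was -0.46, 7 were apart. In glycolysis and fermentation FBA1 (1.23), PGI1 (1.16) and CDC19 (1.04) were the 3 apart of 26, all on the ribosomal side. Without line 8 that list had 5 apart on the ribosomal side and 3 on the opposite side.

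**Figure D3:**
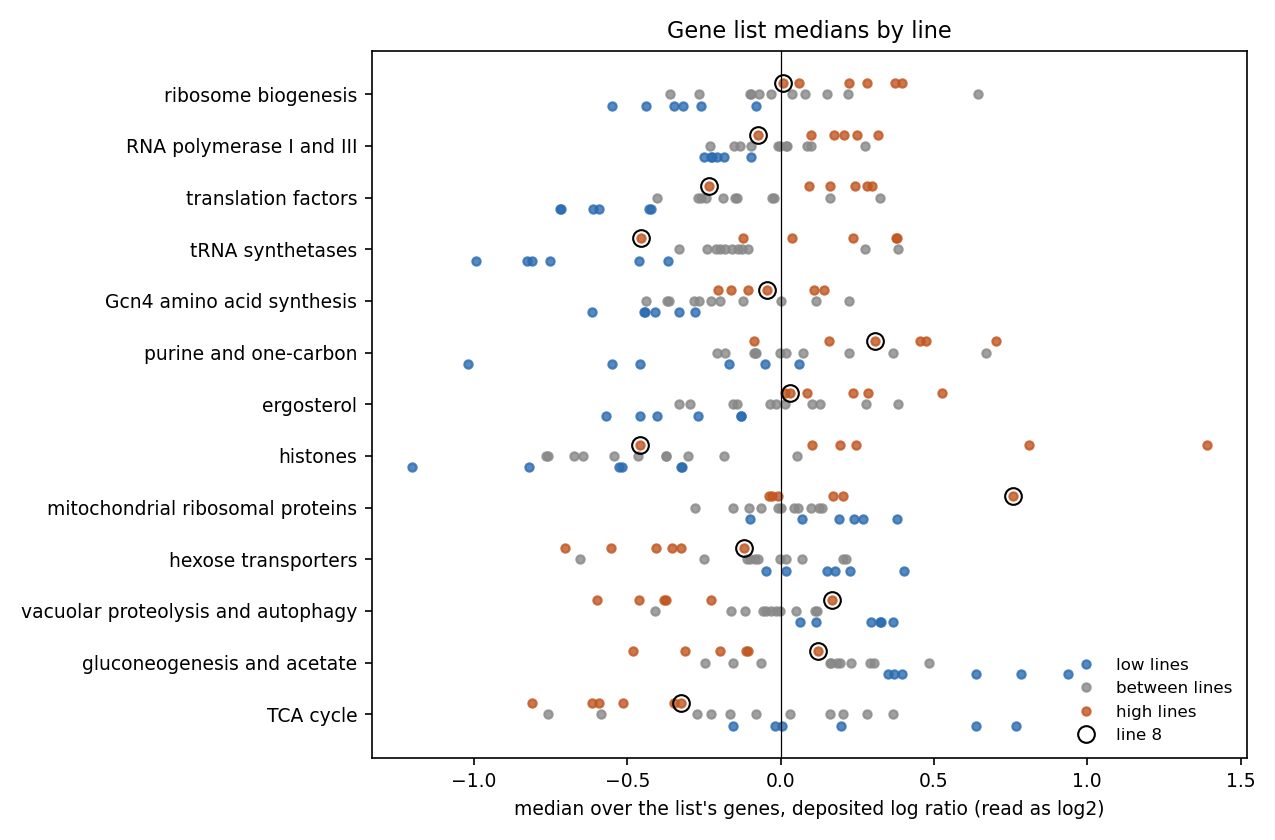
Median over the genes of 13 lists in each line, on the deposited log2 scale, for the 6 low, 11 between and 6 high lines; the open circle marks line 8. The mitochondrial ribosomal median is 0.76 in line 8 and at most 0.20 in the other high lines, and the TCA cycle medians of the high lines lie between -0.81 and -0.33.

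On the opposite side the largest differences were in membrane transport. CSR2 (YPR030W), an arrestin-related adaptor of transporter endocytosis, ran from -3.50 through -2.24 to -1.17 in the high lines and from -0.27 through 0.36 to 1.00 in the low lines. Its means of -2.29 ± 1.01 and 0.37 ± 0.45 (SD, n = 6 each) differed by -2.66, the largest difference among the genes apart. ENA1 (YDR040C), a sodium efflux pump, ran from -2.73 through -2.51 to -0.95 in the high lines and from -0.52 through 0.18 to 1.10 in the low lines, a difference of -2.36. Its neighbour ENA2 differed by -2.34, and whether the spots of these near-identical genes measure separate transcripts was not tested. PMC1, the calcium pump of the vacuole, held between -1.42 and -0.91 in the high lines and between 0.25 and 1.03 in the low lines, a difference of -1.75.

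Carbon genes that glucose represses were apart in the same direction. JEN1 (YKL217W), the lactate and pyruvate permease, ran from -2.14 through -1.30 to -0.63 in the high lines and from -0.55 through 0.79 to 2.07 in the low lines. It differed by -2.30, and line 7, at -0.55, was the low line nearest to the high ones. Of 31 genes for gluconeogenesis, the glyoxylate cycle and acetate use, 8 were apart on the opposite side (15 without line 8) and 0 on the ribosomal side, with a median of -0.78. They included the transcription factor gene CAT8 (-1.38), the cytosolic isocitrate dehydrogenase gene IDP2 (-1.09) and PCK1 of gluconeogenesis (-0.91). ACH1, a CoA transferase of acetate metabolism, differed by -1.86 and was nearly constant in the high lines, from -1.25 to -0.88 (SD 0.14). The glycerol kinase gene GUT1 differed by -1.21 and the glycerol importer gene STL1 by -1.01. With ENA1 and ENA2 they were the 4 apart of 16 glycerol and osmotic genes (6 without line 8). Among 21 hexose transporter and glucose sensor genes, HXT16 (-1.36) and the sensor gene SNF3 (-0.91) were the 2 apart. On that side 6 were apart without line 8. The list median was -0.61, and 4 of the 21 had a positive difference.

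Mitochondrial lists differed from each other. In the tricarboxylic acid cycle 6 of 20 genes were apart (8 without line 8), all on the opposite side, with a median of -0.78. They included the succinate dehydrogenase genes SDH2 (-1.55) and SDH4 (-1.51), the citrate synthase gene CIT1 (-1.46) and FUM1 (-0.97). Of 45 genes for the respiratory chain and ATP synthase, the 3 apart on that side were the NADH dehydrogenase gene NDI1 (-1.30), ATP2 (-1.11) and RIP1 (-1.09), and the list median was -0.13. None of 73 mitochondrial ribosomal protein genes was apart, 2 were without line 8, and their median was -0.03.

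Some genes of breakdown and scavenging lay with the respiratory ones. Median differences were -0.57 for vacuolar proteolysis and autophagy, -0.22 for nitrogen and -0.23 for iron genes, where that of all other rows was -0.02. PRB1 (YEL060C), the vacuolar protease B, ran from -2.28 through -1.40 to -0.15 in the high lines and from 0.35 through 0.80 to 1.26 in the low lines, a difference of -2.07. The autophagy kinase gene ATG1 (-1.23), ATG29 and the carboxypeptidase gene CPS1 (both -0.79) were apart too, among 5 of 36 genes for vacuolar proteolysis and autophagy. Line 8 had a median of 0.17 for that list, within the low lines' range, and without line 8 the count was 15. In the nitrogen list 5 of 41 were apart on the opposite side (5, and 1 on the ribosomal side, without line 8), among them the proline breakdown genes PUT1 (-1.45) and PUT2 (-1.18) and the ammonium permease gene MEP1 (-1.43). The siderophore-binding wall protein genes FIT3 (-0.88) and FIT1 (-0.58) and the haem oxygenase gene HMX1 (-0.81) were the 3 apart on this side among 33 iron genes, while ISU2 (0.52) was apart on the other. Without line 8 these counts were 5 and 0. The endosomal GTPase gene YPT53 (-1.81), ISF1 (-1.55), TPH3 (-1.50) and PAL2 (-1.49) were also among the 15 largest.

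More of the genes opposite to the ribosome fell outside the lists. Of the 198 rows apart on the ribosomal side 105 were in a list, and of the 200 on the opposite side 50 were. The share of all 6117 rows in a list was not counted, and the stress list had been left out first. These counts therefore depend on which lists were written and are not a result about the genes. The proteasome had 1 of 35 apart on each side, PRE6 (0.67) and its activator gene RPN4 (-0.66). Heat shock genes had APJ1 (-1.01) and FES1 (-0.59) on the opposite side and YDJ1 (0.76) on the ribosomal side (3 and 2 without line 8). The cell wall list had PLB1 (-0.78) opposite and CWP2 on the ribosomal side, 1 and 4 without line 8. The oxidative stress list had 1 of 26 apart on the opposite side, and 3 without line 8. The list for sucrose, maltose and galactose use had 0 of 24 apart, but 6 on the opposite side without line 8. M/G1 genes had 0 of 30, but 3 on the ribosomal side and 1 on the opposite side without line 8, and the NAD list had 0 of 16, and 1 on the ribosomal side without line 8.

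Line 8 differed from the other high lines in many lists. In 27 of 40 lists its median lay outside the range of the other 5 high lines, on either side of it: for glycolysis it was 0.30, above their highest of 0.22 and away from the low lines. In 11 of the 27 it lay within the range of the low lines, among them the tRNA synthetase, thiamine, histone, G1/S, G2/M and autophagy lists. In every list some high line is the lowest or highest, as line 22 was for ribosome assembly (0.395). The same counts were not made for the other high lines, so they are not shown to be particular to line 8. Its ergosterol median of 0.03 and its purine median of 0.31 lay within the range of the other high lines. It had 0.57 for HPT1, -1.32 for JEN1 and -2.58 for ENA1, values within the range of the other high lines for all 3 genes. For ASC1 it had -0.46 where the other high lines had 0.31 to 1.74.

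Markers of mating type were checked because an a cell, an alpha cell and a diploid differ in them. Of 7 a-specific genes, 1 was apart, the agglutinin gene AGA2 (0.76). Its margin was narrow, with 0.07 in line 22, the lowest high line, and 0.05 in line 45, the highest low line. The others overlapped, with differences of 1.16 for STE2, 0.91 for MFA2, 0.39 for BAR1, 0.26 for MFA1, -0.0015 for STE6 and -0.25 for ASG7. STE6 was highest among the high lines in line 10, but -0.47 in line 40. ASG7 was -0.13 in line 10 and -0.24 in line 40. STE2, the alpha-factor receptor gene, was 4.55 in line 10 and 2.86 in line 40. It was -0.39 to 0.86 in the other 4 high lines and -0.02 to 0.59 in the low lines. In lines 10 and 40 MFA2 was 3.53 and 2.29, MFA1 1.45 and 1.10, BAR1 1.28 and 1.53, and AGA2 1.45 and 1.01. Over the lines between, STE2 ran from -0.50 through a median of 0.96 to 2.12, and MFA2 from -0.27 through 0.50 to 1.88. The a-specific list median ran from -0.11 to 1.45 in the high lines and reached 0.24 in the low lines. The 6 alpha-specific genes had 0 apart, with medians from -0.09 to 0.59 and from -0.03 to 0.26, and MF(ALPHA)1 was 2.28 in line 40. Differences were 0.35 for MF(ALPHA)1, 0.23 for AFB1, 0.13 for SAG1, 0.03 for STE3 and HMLALPHA1, and -0.24 for MATALPHA1. The haploid list had 0 of 32 apart on the ribosomal side and 2 on the other, PRM1 (-0.88) and PRM8 (-0.51). Without lines 10 and 40 the rows apart numbered 231 on the ribosomal side and 261 on the opposite side. Shares of cells and RNA per cell cannot be told apart in such cultures.

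**Figure D4:**
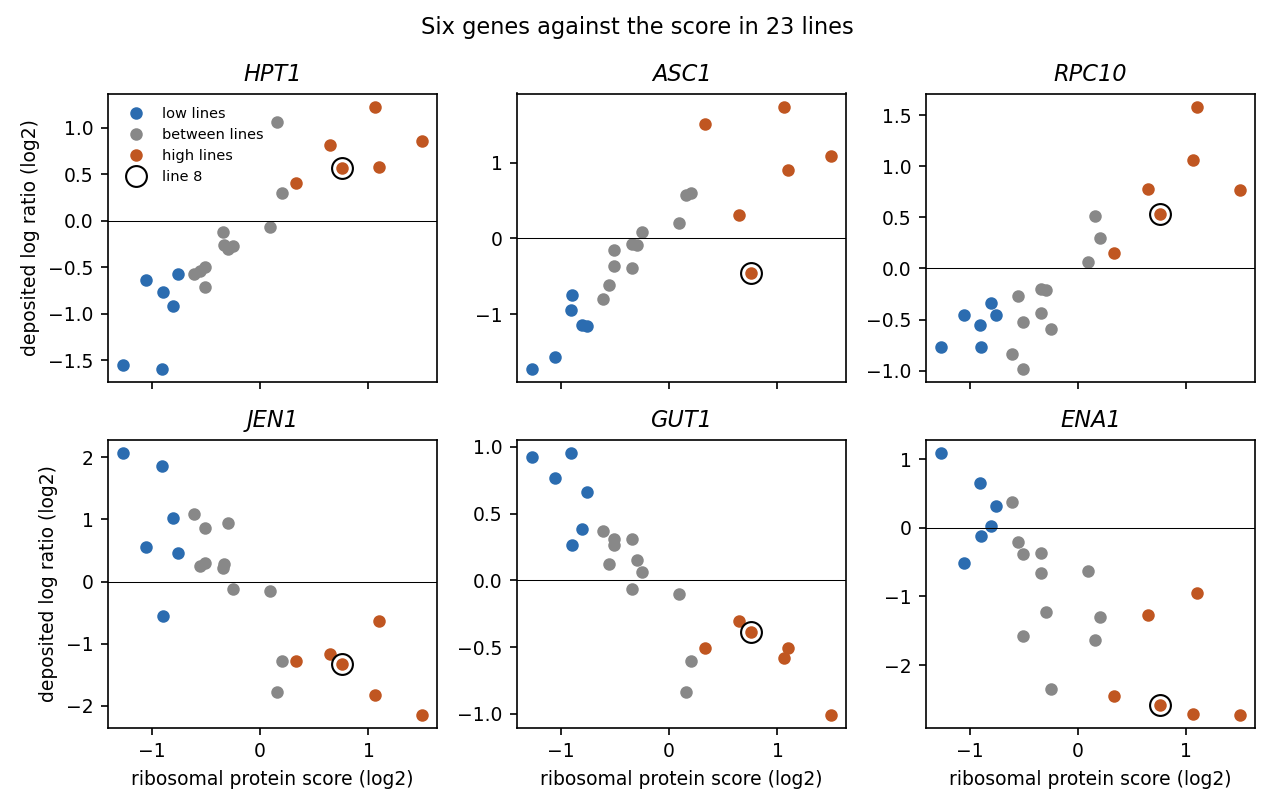
Deposited log2 ratio of 6 genes against the ribosomal protein score in the 23 lines, coloured by place, with line 8 circled. HPT1, ASC1 and RPC10 are higher, and JEN1, GUT1 and ENA1 lower, in the high lines, and ASC1 in line 8 (-0.46) lies among the lines between.

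The 11 lines between were left out by the choice of ends, but the same score had placed them. Each other row was fitted on the score over these 11 lines with limma. A positive slope lies on the ribosomal side whichever channel is the numerator. Score and row came from the same array column, so array differences shared by both were not separated. Lines 6 and 25, next below the high lines, had a mean r of 0.41 and 0.33 to them. The adjusted p values therefore describe how rows follow the score, and are not independent support for the differences between the ends. At a Benjamini-Hochberg adjusted p under 0.05, 85 rows (1.37%) had a positive slope and 72 (1.16%) a negative one, 157 in all (2.53%), and 1309 rows had an unadjusted p under 0.05. How many calls held depended on the line left out. By limma 0 rows were called without line 6, 25 or 27, with 785, 1108 and 1220 at an unadjusted p under 0.05. There were 1 without line 42 (IZH2), 4 without line 2 or 24, 9 without line 16 and 78 without line 50, but 236 without line 20, 250 without line 15 and 458 without line 49. Of the 157 calls, 157 were kept without line 20, 153 without line 49, 139 without line 15 and 76 without line 50, and 9 or fewer without each of the other 7 lines. With columns scaled to a common spread 1 row was called, with a positive slope (ASC1), and under quantile normalization 1, also positive (IZH2). With the stress list median as a second term 0 were called and 336 had an unadjusted p under 0.05.

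Slopes over the lines between had the sign of the difference between the ends for nearly all genes apart. Of the 198 rows apart on the ribosomal side 197 had a positive slope, with a median of 0.71, and of the 200 on the opposite side 197 had a negative one, with a median of -0.63. Over all other rows 3215 of 6202 slopes were positive. Of those genes apart, 29 and 26 were called in the matching direction and 0 in the other. With the stress median in the fit, 167 of 198 and 157 of 200 kept their sign. Genes share these arrays and are not independent, so no p is given for these counts.

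**Figure D5:**
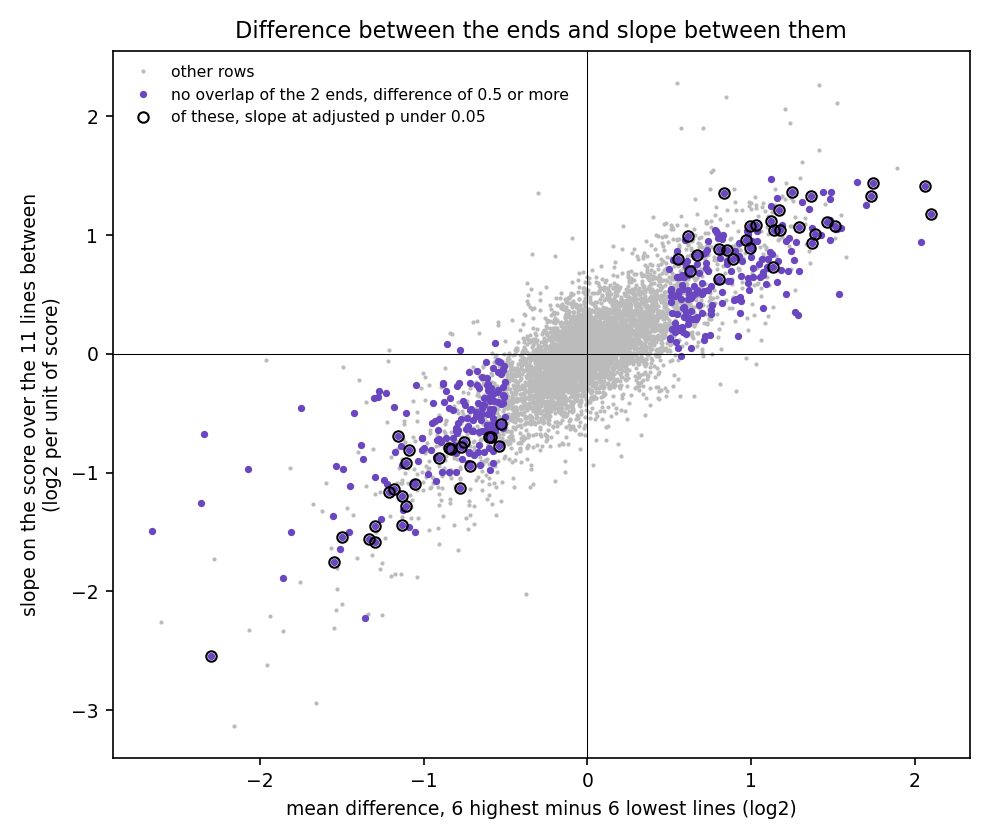
Mean difference between the 6 highest and 6 lowest lines (x axis, log2) against the slope on the score over the 11 lines between (y axis, log2 per unit of score) for the 6117 rows beyond the ribosomal and stress lists; coloured points are rows apart and circles mark those also called by limma. All but 1 of 198 coloured points on the right lie above 0 and all but 3 of 200 on the left lie below.

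ASC1 had the firmest slope among genes apart, 1.41 ± 0.20 per unit of score (SE, n = 11, limma adjusted p = 0.0232, from 0.009 to 0.17 without 1 line). HPT1 followed with 1.44 ± 0.27, RPC10 with 1.33 ± 0.25, RPA49 with 1.36 ± 0.27 and ARO2 with 1.01 ± 0.20, and limma gave each an adjusted p of 0.038, which was at most 0.21 with 1 line left out. On the opposite side JEN1 had -2.54 ± 0.46 and GUT1 -1.16 ± 0.21, with the same adjusted p of 0.038. SNU13, GSP1, RPO26, RPA43, IDP2, NDI1, SNF3 and ISF1 had adjusted p = 0.0482 by limma. Chosen after their values were seen, ZNF1, a regulator of respiratory growth (slope -1.59), MBR1 (-1.44) and the ubiquitin ligase subunit gene RMD5 (-1.09) were also both apart and called.

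Other genes with steep slopes overlapped between the ends. IZH2 (2.17 ± 0.31, limma adjusted p = 0.0232) and IZH1 (1.90 ± 0.46, 0.0482), a pair of membrane proteins of zinc homeostasis, were -0.16 and -0.23 in their lowest high line and 0.23 and 0.95 in line 7, a low line. NOG1 (2.07), NSR1 (1.95), SQT1 (1.55) and RPA135 (1.48), all of ribosome production, and the methyltransferase gene HMT1 (1.53) were called with them. Line 7 was the highest of the low lines for NOG1 (0.60, where the next had -0.84). Negative slopes were steepest for HSP30 (-2.94), YNL195C (-2.62), TMA10 (-2.16), AGP2 (-1.92), YOL153C (-1.81) and the acetate transporter gene ATO2 (-1.72). In HSP30, YNL195C, AGP2, YOL153C and ATO2 line 8 alone, at 1.06, 1.02, 0.63, 0.64 and 0.21, kept the groups from separating. In TMA10 other high lines overlapped the low lines too.

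Some of the largest differences between the ends were not called between them. ENA1 had a slope of -1.26 ± 0.65 (limma adjusted p = 0.291), ENA2 -0.67 ± 0.71 (0.641), PMC1 -0.45 ± 0.40 (0.558), MEP1 -0.49 ± 0.47 (0.595), HHF2 0.50 ± 0.45 (0.575) and EFB1 0.95 ± 0.44 (0.239). In these 6 genes the slope had the sign of the difference between the ends. By list, ribosome assembly had 16 of 148 called and polymerases I and III 7 of 41, all positive, and gluconeogenesis and acetate use 5 of 31, all negative. Translation factors had 7 of 55, and the histone and tricarboxylic acid lists 0 of 11 and 0 of 20 by limma. Median slopes of the histone and tricarboxylic acid lists were 0.50 and -0.996, where that of all other rows was 0.02. Over all other rows 1.37% were called with a positive slope and 1.16% with a negative one. Since 0 rows were called without line 6, 25 or 27, none of these list counts held there.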

How the data were processed

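Per the labels, total RNA of each line was made into cDNA (15 µg of RNA, SuperScript III), labelled and hybridized against YPS183 on 2-channel arrays. The authors normalized the log ratios they deposited, read here as log2; the base, the numerator, background correction, normalization method and spot filters are not stated in the labels. The table had 6334 rows and 0 missing values. Signal over background was not used here, so the precision of a ratio is unknown. Row names were paired with R64 symbols by locus tag (5623, and 194 with a hyphen restored); 517 were not matched and stayed unnamed.

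Lines were scored and compared in Python 3.11.15 with numpy 2.4.6 and pandas 2.3.3. Differences are high minus low means of the deposited values. Slopes over the 11 lines between were fitted with limma 3.58.1 in R 4.3.3 (intercept and score, eBayes without trend, two-sided, Benjamini-Hochberg over the 6202 rows). Figures used matplotlib 3.10.9. Both steps were tested on simulated data with known shifts or slopes. The simulated rows were independent of each other, unlike rows that share these arrays, so those tests do not bear on the counts reported. The labels treat all lines as 1 group and give no batch. Replicates are separate lines, so spread is between lines.

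Members, 42 gene lists and the rules were chosen with earlier results of these data known. Named genes were the 15 largest differences per side among matched genes apart, up to 4 per list with 2 or more apart, the 8 steepest called slopes per side, and all a- and alpha-specific genes. Of the 15 on the opposite side, 1 is not reported here, and list genes with smaller differences are given in part. Alternatives changed the score, the number of lines, the scaling, the threshold, single lines and the limma settings. No sequences were used.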

Additional observations from a re-analysis of the deposited data

Results flagged for a closer look

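In 26 of 328 groups of 6 lines (7.9%), the lowest or highest line passed the critical value of Dixon's test. Chance flags about 1 in 20 of independent groups. These groups share lines and genes, and many genes were chosen by their values, so the 2 shares cannot be compared. Line 40 was the far high line for the alpha-specific list (median 0.59), the haploid list (0.36), MF(ALPHA)1 (2.28), SAG1 (0.62), AFB1 (0.96) and ILV5 (0.02, the lowest). Line 8 was the far high line for the mitochondrial ribosomal list (0.76), the M/G1 list (-0.20), YNL195C (1.02) and AGP2 (0.63), and line 22 for HMT1 (1.00). Line 7 was the far low line for the G2/M list (-0.03), ISF1 (0.04), ARO2 (-0.89), BAR1 (0.59), IZH2 (0.23), NOG1 (0.60) and IZH1 (0.95). Line 44 was far for CWP2 (-1.37), LYS9 (-1.18) and OPT2 (0.61), line 1 for the sulfur amino acid list (-0.23) and PRM8 (0.35), line 28 for FAA1 (-0.19) and MATALPHA1 (0.66), and line 21 for PRM1 (0.05).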

How the results depend on the processing

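The ends held the same lines with the score taken as a mean or over large or small subunit genes alone, and scaling or quantile normalization replaced line 1 with line 15. Rows apart (409 in all, 202 on the ribosomal side, 207 opposite) numbered 211, 88 and 123 with 8 lines at each end, and 132, 72 and 60 at a difference of 1 or more. Columns scaled to a common spread gave 272 in all and 132 on the ribosomal side, and quantile normalization 128 on that side. Leaving out lines 8, 1 and 45, a choice made after seeing the data, gave 897, 414 and 483. Leaving out each of the 12 lines gave 397 to 880 in all, 196 to 413 on the ribosomal side and 201 to 467 opposite. It also gave 10 to 13 of 40 lists with a median of 0.5 or more in size, against 11 with all 12 lines. Averaging lines 1 and 45 gave 376. Called slopes (157, of which 85 positive and 72 negative) numbered 2, 2 and 0 with array weights, 1, 1 and 0 with scaled columns or quantile normalization, 82, 44 and 38 with the mean score, 0, 0 and 0 with the stress term, 284, 150 and 134 adjusted over the whole table, and 607, 284 and 323 without lines 20, 49 and 50, with the cause not tested. Leaving out each of the 11 lines gave 0 to 458 in all, 0 to 219 positive and 0 to 239 negative. Averaging lines 1 and 45 was not run for slopes, since neither is among the 11. Under these alternatives 0 of 96 named genes apart and 0 of 30 named called slopes changed sign. Genes apart do not overlap between the ends, so leaving out lines among the 12 could not change their sign. The slopes were named because they were called in these 11 lines, so neither count is an independent check. No paired analysis was possible because each line is its own sample and no groups share replicate numbers.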
